A study of Mus musculus with 6 samples.

Results

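Expression of 10 chemokine genes was examined in microglia with and without overexpression of PGC-1α, the transcriptional coactivator encoded by Ppargc1a. They were the CC chemokines Ccl2, Ccl3, Ccl4, Ccl5, Ccl7 and Ccl12 and the CXC chemokines Cxcl1, Cxcl2, Cxcl10 and Cxcl16. A probe was assigned to one of them when its transcript accession belonged to that gene. This gave 12 probes for 10 genes, out of 56605 probes and 23462 named genes on the array, with a second probe for Ccl4 and for Cxcl16. Each of the 12 probes was printed as 1 spot.

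The samples were microglia of male mice aged 10 weeks, on a C57BL/6 background per the study's methods, selected magnetically through the surface receptor P2RY12, with 3 arrays for each group. PGC-1αf/f mice carry a loxP-flanked PGC-1α allele together with an eGFP gene, and served as littermate controls. The mPGC-1α mice carry the same allele and, in addition, a tamoxifen-inducible Cre recombinase in the Cx3cr1 locus, which switches PGC-1α on in cells that use this locus. Tamoxifen had been given before the experiments per the study's methods, and whether the controls on these arrays received it is not given in the sources used here. The Cre allele, which sits at a chemokine receptor gene, and the induced PGC-1α differ together between the groups and cannot be told apart. The labels name no animal for a sample, and p-values measure the spread between these samples only.

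Chemokines are small secreted proteins that attract leukocytes by binding receptors on their surface. CC chemokines such as Ccl2 act mainly on monocytes, T cells and other mononuclear cells. CXC chemokines that carry the ELR motif, such as Cxcl1 and Cxcl2, act mainly on neutrophils, whereas Cxcl10 acts on activated T cells and NK cells. Resting microglia make little of most of them, and stimulation through Toll-like receptors, TNF or interferon raises their transcription quickly, largely through the factors NF-κB, AP-1 and IRFs.

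Promoter sequences are given first for the CXC genes, since they place a gene that was not measurable in these cells beside the gene with the widest fitted difference. The size of that difference, for Cxcl2, rests on control replicates 1 and 3, whose signals were not above background. Windows were available for 5 of the 10 genes, namely Ccl3, Ccl12, Cxcl1, Cxcl2 and Cxcl10. The 250 bases before the start site were searched on both strands for an NF-κB motif (GGGAANNNCC), an interferon response motif, ISRE (GAAANNGAAA), and an AP-1 motif (TGANTCA). Among 32851 RefSeq promoter windows of the same length, 4.94% held the NF-κB motif, 2.98% the ISRE and 6.75% the AP-1 motif. The 3 sequences below run 5′ to 3′ on the strand of the gene in the build GRCm38.p6 (RefSeq), with motif matches on either strand in capitals. They cover chr5:90890995-90891244 on the plus strand for Cxcl1, chr5:90903649-90903898 on the plus strand for Cxcl2 and chr5:92348890-92349139 on the minus strand for Cxcl10.
Cxcl1: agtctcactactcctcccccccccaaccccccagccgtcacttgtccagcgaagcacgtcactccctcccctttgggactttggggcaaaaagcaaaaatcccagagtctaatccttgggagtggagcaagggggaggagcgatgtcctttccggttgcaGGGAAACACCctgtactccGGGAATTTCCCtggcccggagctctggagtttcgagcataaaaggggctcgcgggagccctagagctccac
Cxcl2: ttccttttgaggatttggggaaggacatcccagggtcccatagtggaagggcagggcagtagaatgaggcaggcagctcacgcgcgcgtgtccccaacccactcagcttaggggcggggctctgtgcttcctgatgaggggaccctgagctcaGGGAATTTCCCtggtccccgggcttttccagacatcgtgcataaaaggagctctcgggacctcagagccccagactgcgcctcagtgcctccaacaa
Cxcl10: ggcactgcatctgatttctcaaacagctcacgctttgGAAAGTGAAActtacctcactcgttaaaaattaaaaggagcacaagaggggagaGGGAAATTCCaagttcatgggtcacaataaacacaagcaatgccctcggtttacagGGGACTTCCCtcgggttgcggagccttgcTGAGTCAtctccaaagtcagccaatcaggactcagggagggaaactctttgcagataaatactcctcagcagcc

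The Cxcl1 window held NF-κB matches at -90 to -81 and at -71 to -62 from the start site. The Cxcl2 window held one at -97 to -88. In both genes the match nearest the start site overlapped one on the opposite strand, shifted by a base. The Cxcl10 window held an ISRE match at -213 to -204, NF-κB matches at -159 to -150 and, on the opposite strand, at -103 to -94, and an AP-1 match at -74 to -68. None of these letters occurred in the windows of Ccl3 and Ccl12. These matches describe the sequence and do not show binding of a factor.

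Signals are given below as log2 intensity minus the 75th percentile of the array. A probe's level was compared between arrays only and not with that of another probe. A probe was called well above background by the scanner software's own flag. Of the 10 chemokines, 7 were well above background on all 6 arrays, Ccl7 and Cxcl2 on some control arrays and all mPGC-1α arrays, and Cxcl1 on none. The 9 measurable genes were higher on average in mPGC-1α than in PGC-1αf/f microglia, compared with 49.7% of all tested probes. For the 7 genes well above background on all arrays the differences ranged from 0.41 for Cxcl16 to 1.41 for Ccl2 on the log2 scale, with a median of 0.87, against a median of -0.0026 over all tested probes. With Ccl7 and Cxcl2, which were dim in controls, the median over the 9 was 1.15. None of the 9 passed a limma adjusted p of 0.05, which 0.0792% of all tested probes did, and the smallest adjusted p was 0.163. Of the 9 genes, 7 had an unadjusted p under 0.05 and a higher mean, and 0 a lower one, against 7.53% of all tested probes higher and 9.21% lower. In microglia as a bulk sample, fewer cells of a type and less RNA per cell cannot be told apart.

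The 4 genes with an unadjusted p under 0.05 and at least a 2-fold difference were Ccl2, Ccl4, Cxcl2 and Cxcl10, where 2.22% of all tested probes met both conditions upwards. Ccl7 was 2.23-fold higher without such a p. All 3 mPGC-1α arrays lay above all 3 PGC-1αf/f arrays for 6 genes, Ccl3, Ccl4, Ccl5, Ccl12, Cxcl2 and Cxcl10, against 11.4% of the probes with a value on all arrays. Cxcl2 and Ccl7 entered the test through their mPGC-1α arrays only, which favours a difference in that direction. Over the 7 genes well above background on all arrays, 6 had an unadjusted p under 0.05, 3 were in addition 2-fold higher and 5 had groups apart. Both conditions, fold and unadjusted p, were met by 1 gene, Cxcl2, when control replicate 1 or mPGC-1α replicate 3 was left out, and by 7 when control replicate 2 was. Ccl2 remained over 2-fold higher in the first 2 cases, at log2 differences of 1.09 and 1.33, and missed the p. So did Cxcl10 without mPGC-1α replicate 3, at 1.24.

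**Figure D1:**
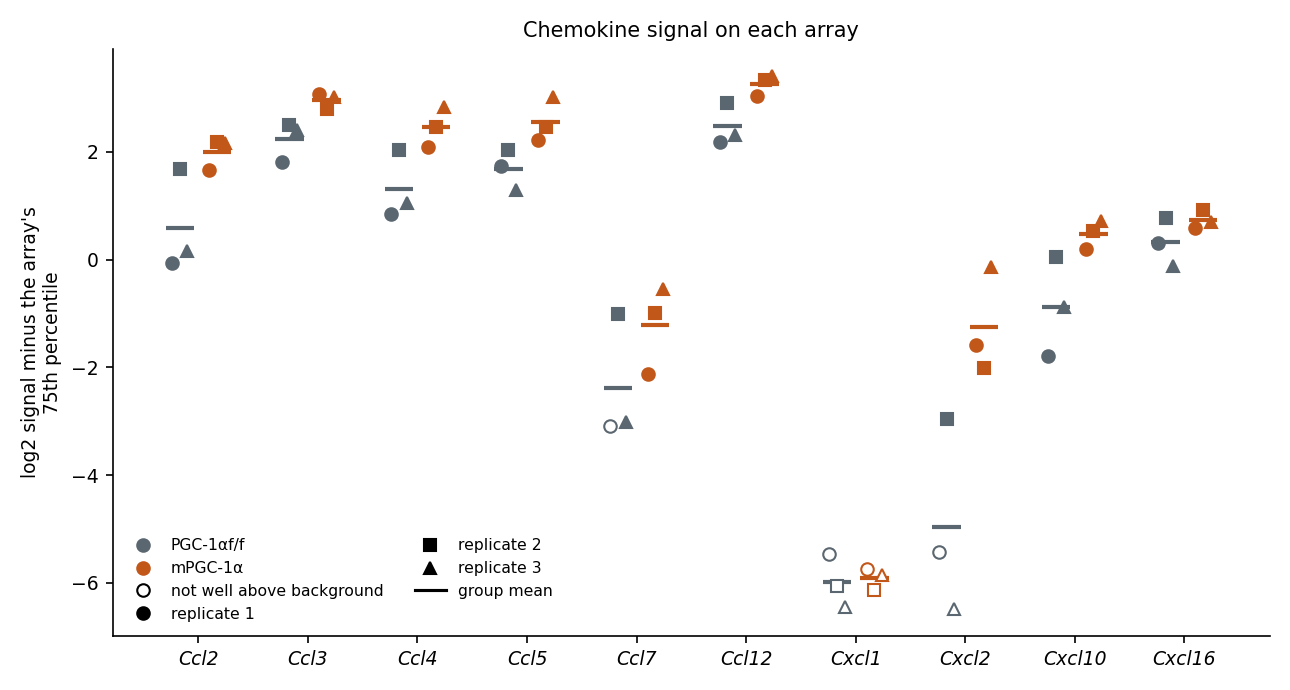
Signal of each chemokine on each array, as log2 intensity minus the 75th percentile of the array (vertical axis), for PGC-1αf/f (grey) and mPGC-1α (orange). Symbols mark the replicate, open symbols a probe that was not well above background, and horizontal lines the group mean (n = 3 each). Levels compare arrays for the same gene only. PGC-1αf/f replicate 2 is the highest control for 9 of the 9 measurable genes, and Cxcl1 is not well above background on any of the 6 arrays.

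Ccl2, Ccl7 and Ccl12 encode the monocyte chemoattractant proteins of the mouse, ligands of the receptor Ccr2, which draws monocytes out of bone marrow and into tissue. The Ccl2 probe (A_51_P286737) read -0.06, 1.68 and 0.16 in PGC-1αf/f replicates 1 to 3 and 1.67, 2.19 and 2.16 in mPGC-1α replicates 1 to 3. Control replicates 1 and 3 were low, whereas control replicate 2 lay 0.010 above the lowest mPGC-1α array, so that the groups overlapped by that margin. The means were 0.59 ± 0.95 and 2.00 ± 0.29 (SD, n = 3 each), a difference of 1.41 (SE 0.45, 95% interval 0.35 to 2.47), or 2.66-fold. Limma gave an unadjusted p of 0.0164 and an adjusted p of 0.226 for Ccl2. Without control replicate 2 its difference was 1.95.

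Ccl12, the mouse gene next to Ccl2 in function, was more even. Its probe (A_52_P249514) gave 2.19, 2.91 and 2.32 in the controls and 3.04, 3.34 and 3.41 in mPGC-1α microglia. All mPGC-1α arrays exceeded all controls, the nearest pair by 0.13. Ccl12 differed by 0.79 (SE 0.22, 95% interval 0.27 to 1.31), or 1.73-fold, with a limma unadjusted p of 0.00913 and an adjusted p of 0.194. Ccl7 was dim. The intensities of its probe (A_51_P436652) were 119, 768 and 264 units in the controls, the first not well above background, and 294, 842 and 1004 units in mPGC-1α microglia. On the log2 scale these were -3.09, -1.02 and -3.02 against -2.12, -0.99 and -0.55. Control replicate 2 lay within the mPGC-1α range, and the difference of 1.16 (SE 0.64, 95% interval -0.35 to 2.67) had a limma adjusted p of 0.386.

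On chromosome 11, Ccl2, Ccl7, Ccl11, Ccl12, Ccl8 and Ccl1 follow each other in the gene table. Of the 3 neighbours in this run that were not among the 10 genes, Ccl11, an eosinophil attractant, and the T cell attractant Ccl1 were well above background on no array. Ccl8 read 0.42, 0.75 and -1.20 in the controls and -0.66, 1.21 and 1.87 in mPGC-1α microglia. Its groups overlapped widely, with a difference of 0.82 (SE 0.74, limma adjusted p 0.591) that was -1.08 between the arrays of slide column 1. The receptor Ccr2 differed by 0.50 (SE 0.32, limma adjusted p 0.441), with overlapping groups. Ccr2 also stands in the monocyte list described further on.

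Ccl3, Ccl4 and Ccl5 encode MIP-1α, MIP-1β and RANTES, which act on monocytes, T cells and NK cells. Ccr1 is a receptor for Ccl3 and Ccl5. The Ccl3 probe (A_51_P140710) read 1.80, 2.51 and 2.40 in PGC-1αf/f and 3.07, 2.80 and 3.02 in mPGC-1α microglia. Its lowest value was in control replicate 1, and the groups were 0.29 apart. The difference of 0.72 (SE 0.21, 95% interval 0.22 to 1.22), or 1.65-fold, had a limma unadjusted p of 0.0113 and an adjusted p of 0.202.

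Ccl4 was measured by a pair of probes that gave the same order of groups. The brighter one (A_55_P2744077) gave 0.85, 2.03 and 1.05 in the controls and 2.10, 2.46 and 2.83 in mPGC-1α microglia. Control replicate 2 came within 0.067 of the lowest mPGC-1α array without reaching it. The difference was 1.15 (SE 0.34, 95% interval 0.35 to 1.95), or 2.22-fold, with a limma unadjusted p of 0.0117 and an adjusted p of 0.206. The second probe (A_51_P509573) differed by 1.31 (SE 0.34, limma adjusted p 0.173), also with groups apart.

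Ccl5 (A_52_P638459) was at 1.74, 2.03 and 1.29 in PGC-1αf/f and at 2.22, 2.46 and 3.01 in mPGC-1α microglia. The groups were 0.19 apart, with control replicate 3 lowest and mPGC-1α replicate 3 highest. Ccl5 differed by 0.87 (SE 0.27, 95% interval 0.24 to 1.51), or 1.83-fold, with a limma unadjusted p of 0.0139 and an adjusted p of 0.216. It was also the gene whose difference was most alike within the slide columns, at 0.47 in column 1 and 0.43 in column 2.

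These genes lie in a second run on chromosome 11, in the order Ccl5, Ccl9, Ccl6, Ccl3 and Ccl4. The CC chemokines Ccl9 and Ccl6 between them, which myeloid cells make without stimulation, gave values near 0. Ccl9 differed by 0.02 (SE 0.20, 95% interval -0.46 to 0.49, limma adjusted p 0.971), and its sign turned under other scalings, to -0.0579 after quantile normalization. Ccl6 differed by -0.19 (SE 0.21, limma adjusted p 0.671), from 5 arrays, since its spot was flagged as an outlier on control replicate 2. The upper ends of the 95% intervals, 0.49 and 0.33, lay below the fitted differences of Ccl3, Ccl4 and Ccl5, although no test set one gene against another. The receptor Ccr1 differed by -0.32 (SE 0.28, limma adjusted p 0.571), and by 0.0185 within slide column 2.

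Cxcl1 and Cxcl2 encode KC and MIP-2, the ligands of Cxcr2 that bring neutrophils into inflamed tissue. They lie side by side on chromosome 5. The Cxcl1 probe (A_55_P2811679) missed the threshold for background on each array, at 23, 23 and 25 intensity units in PGC-1αf/f and 24, 24 and 25 in mPGC-1α microglia, where the dimmest probes called well above background had 113 to 119 units. No difference in Cxcl1 was detectable at this signal. Cxcl2 (A_51_P217463) stood at 23, 199 and 24 units in the controls and at 424, 411 and 1332 units in mPGC-1α microglia. It was thus above background on 1 of 3 control arrays, replicate 2, and on 3 of 3 mPGC-1α arrays.

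On the log2 scale, Cxcl2 read -5.43, -2.97 and -6.48 against -1.59, -2.02 and -0.14, and the groups were 0.95 apart. The fitted difference was 3.71 (SE 0.91, 95% interval 1.56 to 5.86), with a limma unadjusted p of 0.00473 and an adjusted p of 0.163. Control replicates 1 and 3 gave signals not above background, so the size of this difference depends on how such signals are treated. With dim signals raised to the lowest value well above background on the array, a setting chosen after seeing the data, it was 2.18 (limma adjusted p 0.166). Within slide column 2, where both arrays measured the gene, it was 0.95. The NF-κB match at -97 to -88 in the Cxcl2 window and that at -71 to -62 in the Cxcl1 window consist of the same letters, GGGAATTTCC, while only Cxcl2 was measurable. Among the other ELR ligands of this cluster, Cxcl5 and Ppbp were well above background on no array and Cxcl3 on mPGC-1α replicate 3 only. The receptor Cxcr2, a neutrophil gene, differed by 2.25 (SE 1.33, limma adjusted p 0.414), with control replicate 3 below background at -6.07 and the other arrays between -1.26 and -0.06.

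Cxcl10 encodes IP-10, the interferon-induced ligand of Cxcr3. Its probe (A_55_P2016462) gave -1.78, 0.05 and -0.88 in PGC-1αf/f and 0.21, 0.53 and 0.71 in mPGC-1α microglia. The controls were spread more widely than the mPGC-1α arrays, and control replicate 2 came within 0.16 of the lowest of these. The means were -0.87 ± 0.92 and 0.48 ± 0.26 (SD, n = 3 each), a difference of 1.35 (SE 0.43, 95% interval 0.33 to 2.38), or 2.55-fold. Limma gave Cxcl10 an unadjusted p of 0.0167 and an adjusted p of 0.227, and the difference was 0.90 without control replicate 1. Its window was the one of the 5 that held ISRE and AP-1 matches beside those for NF-κB.

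Cxcl9, the neighbouring interferon-γ-induced ligand of the same receptor, read -2.34, -0.63 and -3.59 in the controls and -1.43, -1.71 and -0.97 in mPGC-1α microglia. Control replicate 2 was the highest array of all 6 for Cxcl9, and the difference of 0.82 (SE 0.68, limma adjusted p 0.555) was -1.08 within slide column 2. The receptor Cxcr3 differed by 0.61 (SE 0.28, limma adjusted p 0.328), with overlapping groups.

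Cxcl16 encodes a membrane-bound chemokine and scavenger receptor that binds Cxcr6, and lies apart from the others on chromosome 11. It differed least among the 9 genes. The brighter probe (A_51_P374198) gave 0.31, 0.78 and -0.12 in PGC-1αf/f and 0.58, 0.92 and 0.70 in mPGC-1α microglia, with a difference of 0.41 (SE 0.24, 95% interval -0.16 to 0.98, limma adjusted p 0.411). The second probe (A_52_P99888) differed by 0.09 (SE 0.20, 95% interval -0.39 to 0.56, limma adjusted p 0.846), and within the slide columns by -0.14 and -0.05. Neither probe separated the groups. Cxcr6 differed by 0.58 (SE 0.49, limma adjusted p 0.566), and by -0.54 within slide column 2.

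The 9 genes shared a pattern over the arrays beside that of the groups. Control replicate 2 was the highest of the controls for 9 of 9 genes, whereas replicate 1 was lowest for 6 and replicate 3 for 3. Among the mPGC-1α arrays, replicate 3 was highest for 6 genes and replicate 1 lowest for 7. With each of the 7 genes well above background on all arrays centred on its own mean, the mean over genes was -0.86, 0.12 and -0.70 in the controls and 0.25, 0.51 and 0.67 in mPGC-1α microglia. No mPGC-1α array fell below a control in this mean.

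Of 11557 other genes well above background on all arrays, those whose values followed this mean profile most closely over the 6 arrays were Nucb2 (Pearson r 0.996), Naa10 (0.995), Tagln2 (0.994), Nfil3 (0.994) and Ubl4a (0.992). Their own differences were 0.36, 0.26, 0.58, 0.82 and 0.50 on the log2 scale. With 6 arrays that all genes share, such coefficients are a description and were not tested.

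All arrays lay on 1 slide. Slide row 1 held the PGC-1αf/f arrays and row 2 the others, so that row and group cannot be told apart. Columns 1 and 2 each held an array of both groups, namely the replicates 1 and the replicates 2. Within column 1 the differences ran from 0.27 for Cxcl16 to 1.99 for Cxcl10 among the 7 genes well above background on both arrays. Cxcl2 and Ccl7 were not well above background on the control array there, which gives lower bounds of 1.56 and 0.97, and the median over the 9 genes with these bounds was 1.24. Within column 2 it was 0.43, from 0.03 for Ccl7 to 0.95 for Cxcl2. All 9 differences were above 0 in both columns, at the brighter probe, and all 9, bounds included, were larger in column 1.

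**Figure D2:**
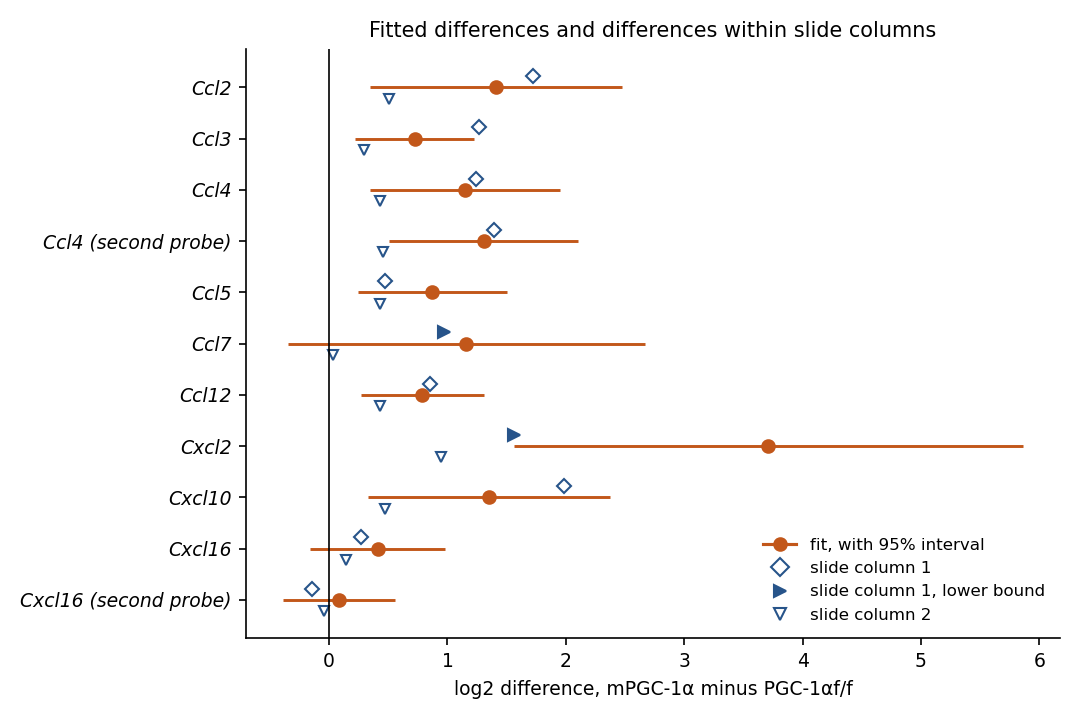
Differences between mPGC-1α and PGC-1αf/f microglia in log2 units (horizontal axis) for the 11 tested chemokine probes. Filled circles give the limma estimate with its 95% interval (n = 3 arrays each), and open diamonds and open triangles the difference between the 2 arrays of slide column 1 and of column 2. Filled triangles pointing right are lower bounds in column 1, for Cxcl2 and Ccl7. The column 2 values lie between 0.03 and 0.95 for the brighter probes, mostly at the lower end of the intervals, and the second Cxcl16 probe is near 0 throughout.

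The targeted gene and the cell type were checked on the same arrays. The brighter Ppargc1a probe was higher by 0.80 in mPGC-1α microglia (SE 0.35, limma adjusted p 0.306), with overlapping groups. All 13 microglial markers passed the filter, and their summed signal was 113 to 134 times the 75th percentile in the controls and 103 to 117 times in mPGC-1α microglia (7 genes with a value on all arrays). Of the 13, 1 had a difference above 0, with a median of -0.22, and Olfml3 and Cx3cr1 were lower on every mPGC-1α array than on every control. Of the probes with a value on all arrays, 13.7% were lower in this way, and the Olfml3 groups were only 0.0091 apart. P2ry12, the gene of the receptor used for sorting, differed by -0.31 (SE 0.21, limma adjusted p 0.478), its outlier spot on control replicate 1 being left out, and by -0.0321 without control replicate 3. Cx3cr1, the locus of the Cre allele and the receptor for Cx3cl1, was at 4.53, 4.28 and 4.24 in the controls and at 3.85, 3.95 and 3.73 in mPGC-1α microglia, a difference of -0.51 (SE 0.14, limma adjusted p 0.194). Between 27025 and 30272 of 59305 spots were called well above background on an array.

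Among the rest of the chemokine family, 27 of 28 further ligands had a probe and 13 of them could be tested. None passed an adjusted p of 0.05 in limma, the unadjusted p was under 0.05 for 4, each of them higher, and their median difference was 0.54. They were Ccl17, Ccl21a, Ccl24 and Ccl25, and 1 of them, Ccl21a, differed at least 2-fold; the last 3 were named after their values were seen. Ccl21a entered the test through the mPGC-1α arrays only, and among probes well above background on all 6 arrays the 4 became 3. Without mPGC-1α replicate 3 they became 1. The T cell attractant Ccl17 was at -2.23, -1.96 and -3.27 in PGC-1αf/f and at -1.45, -1.66 and -1.54 in mPGC-1α microglia, a difference of 0.94 (SE 0.33, limma adjusted p 0.251) with groups apart. Of the 27 ligands, 10 were well above background on no array. Of the 10 chemokines examined here, that was so for 1, Cxcl1. For this and the later lists, the reference is 7.53% of all tested probes higher and 9.21% lower at a limma unadjusted p under 0.05.

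Of 23 chemokine receptors, 15 could be tested. The unadjusted p was under 0.05 for 4 receptors with a higher and 3 with a lower mean, 0 passed the adjusted threshold in limma, and the median difference was 0.70. Named after their values were seen, these were Ackr3, Ccr7, Ccr9 and Ccrl2 on the higher side and, among those on the lower, Ccr3 and Cx3cr1. Ccr7 and Ccr9 entered the test through the mPGC-1α arrays only and Ccr3 through the controls only, in each case the group with the higher mean. The count of 7 in all became 5 among probes well above background on all 6 arrays and 11 without control replicate 2. Among receptors well above background and with a value on all arrays, the largest differences were those of Cxcr4, Ccrl2 and Ccr6. Cxcr4, the receptor for Cxcl12, differed by 1.65 (SE 0.72, limma adjusted p 0.307) with overlapping groups. Ccrl2, which binds chemerin and does not signal, was at 0.07, 0.86 and 0.62 in the controls and at 1.54, 1.17 and 2.02 in mPGC-1α microglia, a difference of 1.06 (SE 0.28, limma adjusted p 0.181) with groups apart. Ccr6, the receptor for Ccl20, differed by 0.87 (SE 1.11, limma adjusted p 0.706), with control replicate 2 at -1.05 and the other arrays between 1.81 and 3.43, and by -0.51 without that array. Among the receptors of these chemokines named above, Ccr1 was lower in the mean and Ccr2, Cxcr2, Cxcr3 and Cxcr6 were higher, and 0 of these 5 had an adjusted p under 0.05 in limma.

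**Figure D3:**
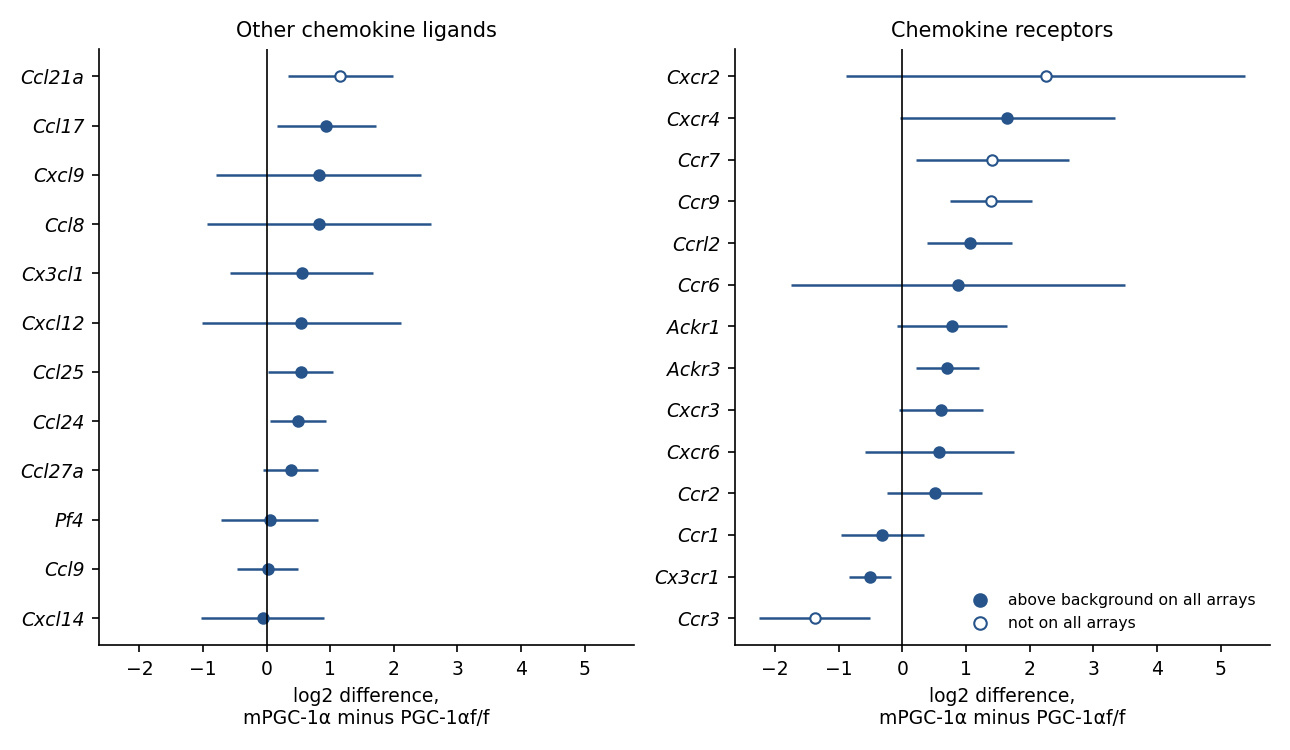
Differences between mPGC-1α and PGC-1αf/f microglia in log2 units (horizontal axes) for the tested chemokine ligands outside the 10 genes (left, 12 genes) and the tested chemokine receptors (right, 14 genes), each with a value on all 6 arrays. Points are limma estimates, bars their 95% intervals (n = 3 arrays each), and open points mark genes not well above background on all 6 arrays. Cx3cr1 and Ccr3 have intervals below 0, and the ligand Ccl9 lies near 0.

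The factors named above as regulators of chemokine genes were followed through lists of their components and targets, none of which held one of the 10 genes. Of 20 NF-κB components and targets, all were tested, 6 had a higher and 1, Rel, tested through its control arrays only, a lower mean with an unadjusted p under 0.05, and 0 passed the adjusted threshold in limma. Their median difference was 0.08, and without mPGC-1α replicate 3 the 7 genes with such a p became 4. Il1b, an inflammatory cytokine gene, was at -0.02, 1.60 and -0.50 in PGC-1αf/f and at 2.16, 1.90 and 3.14 in mPGC-1α microglia, a difference of 2.04 (SE 0.57, limma adjusted p 0.194). As with the chemokines, control replicate 2 was the highest control, and within slide column 2 Il1b differed by 0.30. Bcl3, an atypical IκB protein, differed by 1.52 (SE 0.43, limma adjusted p 0.197), and the adaptor Traf1 by 1.43 (SE 0.53, limma adjusted p 0.265).

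Of 18 measured genes of the interferon response, Cxcl9 included, 12 had a higher and 0 a lower mean with an unadjusted p under 0.05, 9 of them at least 2-fold, with a median difference of 1.03. None passed the adjusted threshold in limma, the smallest adjusted p being 0.0970. Over all tested probes, 7.53% were higher and 9.21% lower at such an unadjusted p, and 2.22% were also at least 2-fold higher. Isg15, a ubiquitin-like modifier, differed by 1.51 (SE 0.33, limma adjusted p 0.135), the antiviral gene Rsad2 by 1.50 (SE 0.47, limma adjusted p 0.222) and Ifi44 by 1.24 (SE 0.40, limma adjusted p 0.233).

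Of 18 immediate-early genes, which cells induce within minutes of a stimulus and which tissue dissociation also induces, 10 had a higher and 0 a lower mean with an unadjusted p under 0.05, and the median difference was 0.70. Fosb, an AP-1 component, rose by 3.48 (SE 0.29, limma adjusted p 0.0169), and Dusp1, a phosphatase that limits MAP kinase signalling, by 2.24 (SE 0.16, limma adjusted p 0.0122). With the replicate number as a block these were at adjusted p 0.0947 and 0.0803. Fosb also lost the threshold without control replicate 1 or 2 (limma adjusted p 0.0649 and 0.0793) or mPGC-1α replicate 2 or 3 (0.144 and 0.137), and Dusp1 without control replicate 2 (0.0760) or mPGC-1α replicate 2 or 3 (0.125 and 0.0827). Averaged over all its probes, Fosb differed by 1.90 (limma adjusted p 0.0726). Ier3 differed by 1.64 (SE 0.23, limma adjusted p 0.0728). Summed over 13 genes, the signal of this list was 36.4, 36.0 and 39.5 times the 75th percentile in PGC-1αf/f and 63.0, 67.3 and 69.2 times in mPGC-1α microglia, with control replicate 2 no higher than the other controls. The part of this list in the chemokine differences was not tested.

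The summed signal of the 10 chemokines was 15.9, 27.9 and 17.5 times the 75th percentile in the controls and 31.9, 36.7 and 43.2 times in mPGC-1α microglia. The sum put control replicate 2 closest to the mPGC-1α arrays, and no control reached them. It is carried by the brighter probes and gives Ccl7 and Cxcl2 little weight.

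Markers of other cells that make or follow chemokines varied over the same arrays. The 15 markers of monocytes and neutrophils were all above background on some array, and their summed signal was 156, 185 and 36.7 times the 75th percentile in the controls and 187, 200 and 220 times in mPGC-1α microglia. No control reached the mPGC-1α arrays, and control replicate 3 was far below the other 5 arrays. Of the 15, 14 had a difference above 0, with a median of 1.45, 0 had an unadjusted p under 0.05 in limma, and 10 had one when control replicate 2 was left out. The size of this median depends on control replicate 3. Slide columns 1 and 2 hold no replicate 3, and the 15 differences there ran from -0.15 to 0.78 and from -0.05 to 0.60. Without control replicate 3 the median chemokine difference was 0.84, and the counts were 7 at an unadjusted p under 0.05 and, of these, 4 at 2-fold, as with all arrays.

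For T and NK cells, 12 markers had a probe, with Klrb1c and Ncr1 above background on no array. Their summed signal was 4.45, 7.35 and 1.77 times the 75th percentile in the controls and 5.77, 7.12 and 10.4 times in mPGC-1α microglia, with overlapping groups, and 1 of 10 tested markers, Gzmb, was higher at an unadjusted p under 0.05, or 7 without control replicate 2. Gzmb entered the test through the mPGC-1α arrays only, and 0 markers had such a p among probes well above background on all 6 arrays. All 10 tested T and NK cell markers had a difference above 0, with a median of 0.97. As for the chemokines, control replicate 2 and mPGC-1α replicate 3 held the highest sums of their groups. The same held for the monocyte and neutrophil, NF-κB, interferon, other ligand and endothelial and mural sums, and not for the remaining lists. Border macrophage markers summed to 17.4 to 18.8 in the controls and 17.7 to 26.3 in mPGC-1α microglia (9 genes), and endothelial and mural markers to 14.4, 15.4 and 4.01 in control replicates 1 to 3 against 14.5 to 19.2 (11 genes). Differences were above 0 for 9 of 10 tested border macrophage markers (median 0.29) and 6 of 6 tested endothelial and mural markers (median 0.64). Control replicate 3 was also lowest for the erythroid markers, at 4.92, where the other controls had 20.8 and 20.7 and the mPGC-1α arrays 11.4 to 20.7 (4 genes). Oligodendrocyte markers went the other way, at 17.2 or more in the controls against 14.6 or less in mPGC-1α microglia (12 genes), with 5 of 10 tested genes, Cldn11, Cnp, Mog and Opalin among them, lower at an unadjusted p under 0.05, and 9 genes with such a p without control replicate 1. Mog, above background on no mPGC-1α array, and Opalin entered the test through the controls only, and the count was 4 among probes well above background on all 6 arrays. Lists for astrocytes, neurons and erythroid cells had 0 of 8, 0 of 8 and 0 of 4 tested genes at an unadjusted p under 0.05 in limma, with median differences of 0.09, 0.12 and 0.20. The part of these cells in the chemokine differences was not tested.

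**Figure D4:**
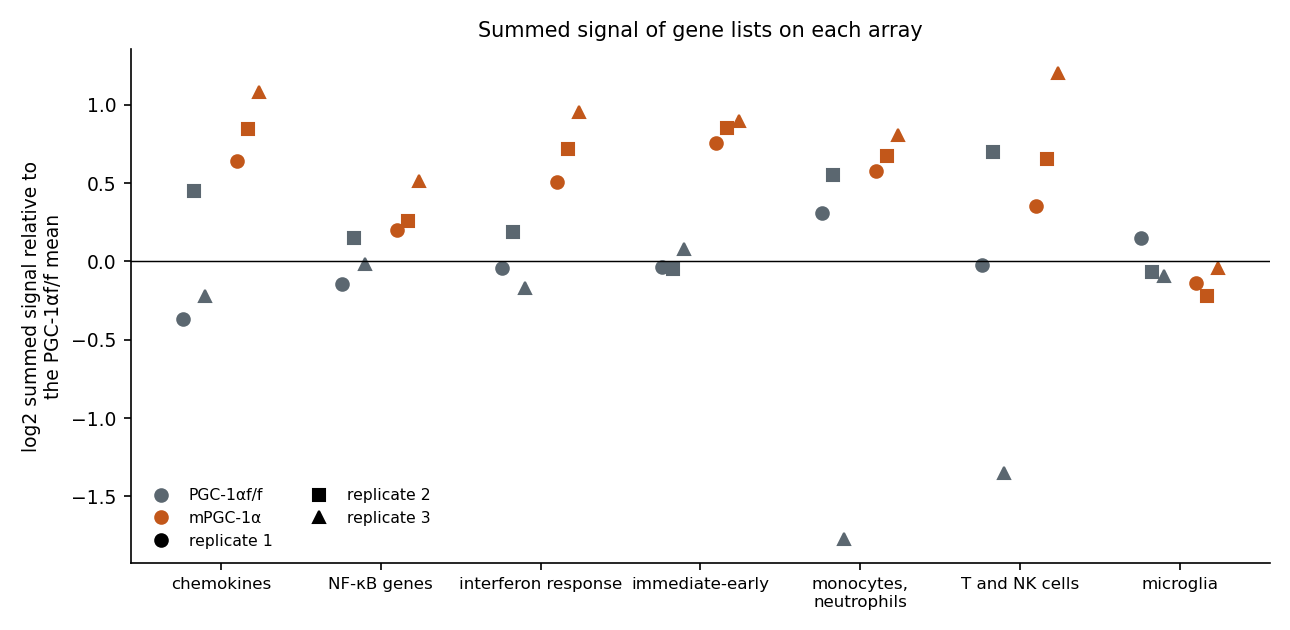
Summed signal of 7 gene lists on each array, as log2 of the sum relative to the mean over the PGC-1αf/f arrays (vertical axis). Grey and orange symbols are the PGC-1αf/f and mPGC-1α arrays, with a shape for each replicate, and the line at 0 is the control mean. The chemokine, NF-κB, interferon, immediate-early and monocyte and neutrophil sums do not overlap between groups, the last being far lower in control replicate 3 than elsewhere, and the T and NK cell and microglial sums overlap.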

How the data were processed

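Gene expression was measured on 6 Agilent 1-colour mouse arrays. The authors labelled the samples with Cy5, and the deposited scanner files hold the intensity of each spot from Agilent Feature Extraction 11.5.1.1 after background subtraction. A deposited series matrix gave the same intensity values, without scaling between arrays (within 0.0072 log2 units). GeneSpring is named for normalization in the study's methods, with no test per gene for the arrays.

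After removal of control and outlier spots, the 75th percentile of an array (1012 to 2138 units) was subtracted on the log2 scale and replicate spots were averaged. Saturated spots numbered 0. Tested were 25333 of 56605 probes, those for which 0.5 or more of the spots exceeded background on every array of either group, and 25257 gave a p-value. A RefSeq gene table of GRCm38.p6, used for symbols and gene order only, named 33767 probes with 1 symbol. A gene was represented by its brightest probe measured on all arrays. The test was limma 3.58.1 (lmFit, eBayes, two-sided; R 4.3.3, data.table version 1.17.8), adjusted over all tested probes by Benjamini-Hochberg. A 2-fold difference is an absolute log2 difference of at least 1. An exact permutation test of 3 against 3 arrays cannot go below 0.1 and was not used. The number of arrays limits the precision. The fit was tested on simulated data, and Python 3.11.15, pandas 2.3.3, numpy 2.4.6 and matplotlib 3.10.9 were used for promoters and figures.

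The 10 chemokines, the other lists and the tests were chosen with earlier results of these data known. Named were the 10 genes, Ppargc1a, the 5 genes most like the mean profile, receptors and neighbours of the chemokines, list genes past the adjusted threshold and, for each of the 5 lists of related genes, the 3 with the largest difference among those above background on all arrays. Genes of the cell type lists were described by list. Some genes of the lists count in the totals and are not reported here by name. Alternatives covered quantile, median and normexp (offset 50) scaling, the unscaled series matrix, other filters, replicate number and slide column as blocks, array weights, a trended robust eBayes, the mean over a gene's probes, omission of arrays and, chosen after seeing the data, raising dim signals to the background limit.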

Additional observations from a re-analysis of the deposited data

How the results depend on the processing

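The 9 measurable chemokines kept a positive difference at the probe reported under each alternative that gave them a value, which the filter on all 6 arrays did not for Ccl7 and Cxcl2. The number past an adjusted p of 0.05 was 0 throughout, except for 1, Cxcl2 (adjusted p 2.45e-14), in the deposited values without normalization. The number with both a 2-fold difference and an unadjusted p under 0.05, 4 with all arrays, was 1 with array weights and 1 without both replicates 3 (Cxcl2 each time), and ran from 1 to 7 when each array was left out in turn. The median difference, 1.15, was 0.87 over the 7 genes well above background on all 6 arrays, 0.57 with array weights, 0.43 within slide column 2 and 0.82 to 1.51 when each array was left out. With the replicate number as a block, 0 passed the adjusted threshold, 4 met both conditions and the median was 1.15. The deviations of same-numbered arrays correlated at 0.14, 0.13 and 0.0187, and the numbers were treated as names only. Replicates 1 and replicates 2, which share slide columns, were nonetheless each other's best match between the groups, and replicates 3 were not. The consensus correlation for slide column was 0.349, and the main test holds no term for column. With slide column taken as random, 0 passed the adjusted threshold, 4 met both conditions and the median was 0.98. The median shift moved the median of all tested probes to -0.14, and the chemokine median to 1.02. Array weights gave 4 chemokines an unadjusted p under 0.05, and leaving out both replicates 3 gave 2, against 7.

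P2ry12, at -0.31, ran from -0.63 in the deposited values to -0.0321 without PGC-1αf/f replicate 3. Some neighbours and receptors changed sign. Ccl9 turned to -0.0579 with quantile normalization, -0.11 with the median shift, -0.0174 with normexp, -0.0186 in the deposited values, -0.0607 with slide column taken as random (consensus correlation 0.349), -0.14 with array weights, -0.36 within slide column 1 and -0.20 within column 2. With array weights Cxcl9 was at -0.31 and Cxcr6 at -0.15. Within slide column 1, Ccl8 was at -1.08 and Ccr6 at -0.96. Within column 2, Cxcl9 was at -1.08, Cxcr6 at -0.54 and Ccr1 at 0.0185. Over all settings that left out arrays, Ccl9 ran from -0.28 to 0.13, Ccl8 from -0.31 to 1.55, Cxcl9 from -0.0842 to 1.60 and Cxcr6 from -0.14 to 1.10. Ccr6 ran from -0.51, without PGC-1αf/f replicate 2, to 1.73. The causes were not tested. Signal over background limits what can be said of Cxcl1, Cxcl2 and Ccl7.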

Other observations

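Outside the 10 chemokines, the neutrophil attractant Cxcl3 was well above background on mPGC-1α replicate 3 only, at 241 intensity units, where the other 5 arrays gave 24.0 to 46.6 units. Ccl19, a ligand of Ccr7, was likewise measured on that array only, at 168 units, with 93.2 units on mPGC-1α replicate 2 and 25.1 to 38.9 units on the other 4 arrays. The same array held the highest signal of its group for 6 of the 9 measurable chemokines, Cxcl2 among them at 1332 units.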
